A study of Mus musculus with 12 samples.

Results

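The Myc, Max and Mxd network is a set of transcription factors of the basic helix-loop-helix leucine zipper class, and its 10 genes (Myc, Mycn, Mycl, Max, Mxd1, Mxd3, Mxd4, Mxi1, Mnt and Mga) were taken by symbol from a count table of 27179 genes, in which all 10 were found. The samples were leukemia cells from the spleens of 3 recipient mice given doxycycline for 3 days and of 3 untreated recipient mice, with 2 sequencing runs per RNA. Both groups carried 1 primary mouse T-cell acute lymphoblastic leukemia (T-ALL), named ALL101, with the transgenes Vav-tTA and TRE-GFP-shIkaros. In this tetracycline-off system the transactivator tTA, expressed from the blood-cell promoter Vav, drives a GFP-linked hairpin RNA against Ikaros, and doxycycline stops the hairpin so that endogenous Ikaros returns. The cells were sorted as GFPmid after doxycycline and as GFPhigh when untreated, so the treatment and the sort gate cannot be told apart. No doxycycline-treated leukemia lacking the hairpin was analysed here, so restored Ikaros and doxycycline itself cannot be told apart either. All mice carried the same leukemia, so the p-values describe the spread between recipients of 1 leukemia and not between leukemias.

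Myc dimerizes with the small partner protein Max, and the dimer binds the E-box DNA sequence CACGTG and raises transcription of genes for growth, ribosome assembly and metabolism. The Mxd proteins (Mxd1, Mxd3, Mxd4 and Mxi1) and Mnt also pair with Max and bind the same sequence. They recruit the Sin3 corepressor with histone deacetylases, and they compete with Myc for both Max and DNA. Mga, a very large protein, joins Max to a repressive Polycomb complex called PRC1.6. In T-ALL, Myc is a well-known direct target of Notch1 and a driver of leukemia growth, and Mxd1 and Mxd4 are known as genes of differentiating or resting cells.

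Each mouse had between 29904744 and 44949303 counts in total. The hairpin's target Ikzf1 had 1438, 1523 and 1495 CPM in the doxycycline mice, against 153, 149.7 and 158.6 CPM in the untreated mice, in the direction of the labels (CPM is the count of a gene scaled to the library total with TMM factors). All 10 T-cell markers were above 1 CPM. Their summed level was 11000 to 11400 CPM after doxycycline and 9230 to 9490 CPM in untreated mice. Of these, 5 rose (Cd247, Thy1, Bcl11b, Tcf7 and Lat), Cd3g fell, and Cd3d, Cd3e, Lck and Gata3 did not pass. B-cell markers were nearly absent, with 0 of 6 above 1 CPM in any mouse and Pax5 at 0 counts throughout. The 9 myeloid markers summed to 74.9 to 99.9 CPM after doxycycline and to 26.4 to 39.8 CPM in untreated mice, with 8 of them above 1 CPM in some mouse and none at 0. In that list 5 rose (Itgam, Csf1r, Adgre1, Cd68 and C1qa), S100a8 and S100a9 fell, and Lyz2 and Csf3r did not pass. Itgam alone had 46.0, 48.3 and 37.8 CPM in the doxycycline mice, against 9.09, 10.7 and 9.78 CPM in the untreated mice. The 8 erythroid markers, all above 1 CPM in some mouse, summed to 86.9 to 111 CPM after doxycycline and to 7.86 to 61.5 CPM in untreated mice, where untreated mouse 3 was the highest. The 6 stromal and endothelial markers summed to 370 to 387 CPM after doxycycline and to 236 to 267 CPM in untreated mice, with 4 of 6 above 1 CPM. The library name of untreated mouse 3 lacks the sort wording that the other names carry.

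For the 5 members that passed the test below and have a promoter window in RefSeq's GRCm38.p6 set, the sequences are shown because 2 of them hold the network's own binding sequence. Each is given 5′ to 3′ from 250 bases before the gene's start to 10 bases after it, with CACGTG in capitals. Mxd4 lies at chr5:34187701-34187960, Mxd1 at chr6:86669150-86669409, Mxd3 at chr13:55329722-55329981 and Max at chr12:76962239-76962498, all on the minus strand, and Mga at chr2:119896978-119897237 on the plus strand, inside the gene's listed extent.
Mxd4: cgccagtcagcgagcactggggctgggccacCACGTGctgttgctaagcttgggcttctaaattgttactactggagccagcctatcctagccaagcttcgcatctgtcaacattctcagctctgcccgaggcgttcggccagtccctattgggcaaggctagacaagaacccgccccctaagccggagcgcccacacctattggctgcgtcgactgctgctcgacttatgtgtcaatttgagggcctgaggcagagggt
Mxd1: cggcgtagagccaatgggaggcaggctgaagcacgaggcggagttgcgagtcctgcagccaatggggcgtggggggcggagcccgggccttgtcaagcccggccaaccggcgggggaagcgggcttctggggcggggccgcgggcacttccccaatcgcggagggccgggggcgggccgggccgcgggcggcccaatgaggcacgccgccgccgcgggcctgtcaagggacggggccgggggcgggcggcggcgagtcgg
Mxd3: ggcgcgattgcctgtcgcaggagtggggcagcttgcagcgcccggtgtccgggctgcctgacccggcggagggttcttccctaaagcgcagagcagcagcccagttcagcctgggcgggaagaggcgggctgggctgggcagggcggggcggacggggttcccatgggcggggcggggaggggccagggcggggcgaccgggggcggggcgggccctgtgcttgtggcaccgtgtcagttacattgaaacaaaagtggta
Max: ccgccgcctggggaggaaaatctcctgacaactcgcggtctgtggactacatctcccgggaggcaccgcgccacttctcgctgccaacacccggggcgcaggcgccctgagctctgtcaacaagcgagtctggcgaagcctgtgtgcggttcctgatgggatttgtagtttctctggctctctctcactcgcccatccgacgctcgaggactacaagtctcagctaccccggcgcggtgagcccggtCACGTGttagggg
Mga: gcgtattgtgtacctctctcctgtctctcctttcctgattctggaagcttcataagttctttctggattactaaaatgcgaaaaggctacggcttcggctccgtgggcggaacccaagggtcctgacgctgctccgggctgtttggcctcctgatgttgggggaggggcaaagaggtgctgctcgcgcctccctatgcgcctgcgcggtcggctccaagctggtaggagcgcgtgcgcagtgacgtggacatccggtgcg
Mxd4 held 1 CACGTG at positions -219 to -214 from its start, and Max held 1 that spans the start itself, from -3 to 3, with no position 0. Mnt held 1 at -123 to -118. CACGTG, which reads the same on both strands, was thus present for 3 of 9 members with a window of 300 bases, against 8.09% of 27025 genes in the RefSeq set. The variant CACGCG, searched on both strands as CACGCG or CGCGTG, was present for Mycl and Mga, against 10.5% of genes. The Ikaros core GGGAA, searched as GGGAA or TTCCC, was present for 6 of 9 members, against 65.5% of genes, and the Max, Mxd4 and Mga windows had none. These matches describe letters in 1 window per start, and no test was made on them. The RefSeq set has no window for Myc, so Myc was not searched, and it lists 3 windows for Mxi1.

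Myc was lower after doxycycline. Myc (Entrez ID 17869, chromosome 15, 61985341 to 61990361 of GRCm38, the build called mm10) had 113.4, 151 and 171.8 CPM in the doxycycline mice, against 362.7, 340.2 and 391.9 CPM in the untreated mice. Every doxycycline mouse lay below every untreated mouse, and doxycycline mouse 1 was the lowest. Myc fell by 1.33 log2 units after doxycycline (SE 0.15, edgeR's quasi-likelihood test with Benjamini-Hochberg adjustment over 13134 genes, adjusted p = 0.00044), to 145.4 ± 29.56 CPM against 364.9 ± 25.96 CPM (SD, n = 3 each), a 2.51-fold difference. Of all tested genes, 4.33% had a larger fall. Pvt1, a long noncoding RNA gene next to Myc on chromosome 15 (62037986 to 62260215), had 3.38, 2.13 and 4.62 CPM after doxycycline, against 12.9, 10.9 and 9.11 CPM in untreated mice. Pvt1 fell by 1.70 log2 units (SE 0.28, edgeR adjusted p = 0.0018), and its groups did not overlap.

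The other Myc-family activators had few counts. Mycn, which drives neural and some lymphoid tumors, had 0 counts in all doxycycline mice, which allows up to 0.0245 CPM over the group (3 counts), and 0, 2 and 0 counts in the untreated mice. Mycl had 5, 3 and 4 counts in the doxycycline mice, against 0, 2 and 2 counts in the untreated mice. Summed over each group, Mycl was at 0.0979 CPM after doxycycline (95% exact Poisson interval 0.0506 to 0.171, counting error only) and at 0.043 CPM in untreated mice (0.0117 to 0.11). The Mycl CPM values of the groups did not overlap, by a margin smaller than 1 count, and the intervals overlapped. Neither gene passed the filter on low counts and neither was tested, so 8 of the 10 members were tested. Mycs, a retrogene relative of Myc on the X chromosome that is not one of the 10, had 0 counts in all 6 mice.

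Max, the partner shared by Myc and its antagonists, was lower by a smaller amount. It had 107.8, 109 and 108 CPM in the doxycycline mice, against 142.9, 136.9 and 132.9 CPM in the untreated mice. The doxycycline mice lay within a narrow band below all untreated mice. Max fell by 0.35 log2 units (SE 0.06, edgeR adjusted p = 0.0020), a 1.27-fold difference, and 23.0% of all tested genes had a larger fall. Max (chromosome 12, 76937269 to 76962323) is the shared component, so its transcript level is set beside those of its partners below.

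Among the 6 Max-binding antagonists, 3 rose, 1 fell and 2 did not pass. All that rose belong to the Mxd family. Mxd4 (chromosome 5, 34176580 to 34187710) had 77.47, 127.4 and 65.55 CPM in the doxycycline mice, against 36.95, 37.41 and 36.72 CPM in the untreated mice. The untreated mice were almost equal, whereas doxycycline mouse 2 stood far above the other treated mice, and the groups did not overlap. Mxd4 rose 2.43-fold (log2 fold change 1.28 ± 0.25 SE, edgeR adjusted p = 0.0070), and leaving out doxycycline mouse 2 gave 0.96 on the log2 scale (edgeR adjusted p = 0.00015). Of all tested genes, 6.25% had a larger rise.

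Mxd1 (chromosome 6, 86647044 to 86669234), the founding Mxd gene, was at a low level and had 24.14, 24.78 and 21.78 CPM in the doxycycline mice, against 11.03, 12.29 and 15.33 CPM in the untreated mice. The groups did not overlap, and untreated mouse 3 was nearest to the treated mice. Mxd1 rose 1.83-fold (log2 fold change 0.87 ± 0.13 SE, edgeR adjusted p = 0.0011). Mxd1 is also expressed in maturing myeloid cells, and the myeloid markers given above went both ways, with a higher sum in the doxycycline mice but lower S100a8 (1.65, 1.64 and 1.15 CPM in the doxycycline mice, against 3.35, 5.12 and 2.56 CPM in the untreated mice). Their part in the result was not tested. Between the 2 sequencing runs of a mouse, Mxd1 also showed the largest gap of the 8 tested members, 0.27 log2 units in untreated mouse 3.

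Mxd3 (chromosome 13, 55325170 to 55329900), known as the Mxd gene of cycling cells in S phase, had 69.4, 56.9 and 76.9 CPM in the doxycycline mice, against 46.3, 46.7 and 54.9 CPM in the untreated mice. Doxycycline mouse 2 and untreated mouse 3 came close to each other without overlap. Mxd3 rose 1.37-fold (log2 fold change 0.46 ± 0.12 SE, edgeR adjusted p = 0.013), and it did not pass without untreated mouse 1 (edgeR adjusted p = 0.056) or without untreated mouse 2 (0.053). Mxd3 shares 105 exonic bases with Prelid1 on the opposite strand, and Mxd4 shares 514 with the antisense gene Gm42846 in GENCODE M21. Mxi1 shares 194 with Gm10197 on the opposite strand. Whether counting used strand is not given in the sources used here, so reads in these stretches cannot be assigned to 1 gene.

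Mxi1 and Mnt did not pass. Mxi1 (chromosome 19, 53310128 to 53373293), an Mxd-family gene with several first exons, had 40.87, 48.07 and 42.55 CPM in the doxycycline mice, against 31.05, 35.0 and 46.3 CPM in the untreated mice. The groups overlapped because untreated mouse 3 lay within the treated range (log2 difference 0.23 ± 0.15 SE, edgeR adjusted p = 0.23). Without untreated mouse 3 the difference was 0.40 and passed (edgeR adjusted p = 0.015). The longest Mxi1 transcript also matches Gm13735 over 609 bases at 91.0% identity. Mnt (chromosome 11, 74830806 to 74845725), the most widely expressed antagonist in textbook accounts, had 55.6, 54.35 and 54.12 CPM in the doxycycline mice, against 45.97, 51.23 and 53.75 CPM in the untreated mice (log2 difference 0.12 ± 0.08 SE, edgeR adjusted p = 0.22). Its groups were separated by a margin smaller than the spread of the untreated mice.

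Mga ran the other way from the Mxd genes that rose. Mga (chromosome 2, 119872503 to 119970129) had 183.3, 161.4 and 161.6 CPM in the doxycycline mice, against 248.4, 246 and 219.1 CPM in the untreated mice. The groups did not overlap, and Mga fell by 0.49 log2 units (SE 0.08, edgeR adjusted p = 0.0014), a 1.41-fold difference. Of the 8 tested members, 6 passed, where 50.0% of all tested genes did. A change of at least 2-fold passed for Myc and Mxd4, and for 14.1% of all tested genes. By direction, 3 rose, where 24.8% of all tested genes did, and 3 fell, where 25.2% did. The CPM of both groups did not overlap for 7 of 8 tested members, against 61.2% of all tested genes. The median log2 fold change of the tested members was 0.17, and that of all tested genes was -0.0037.

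**Figure D1:**
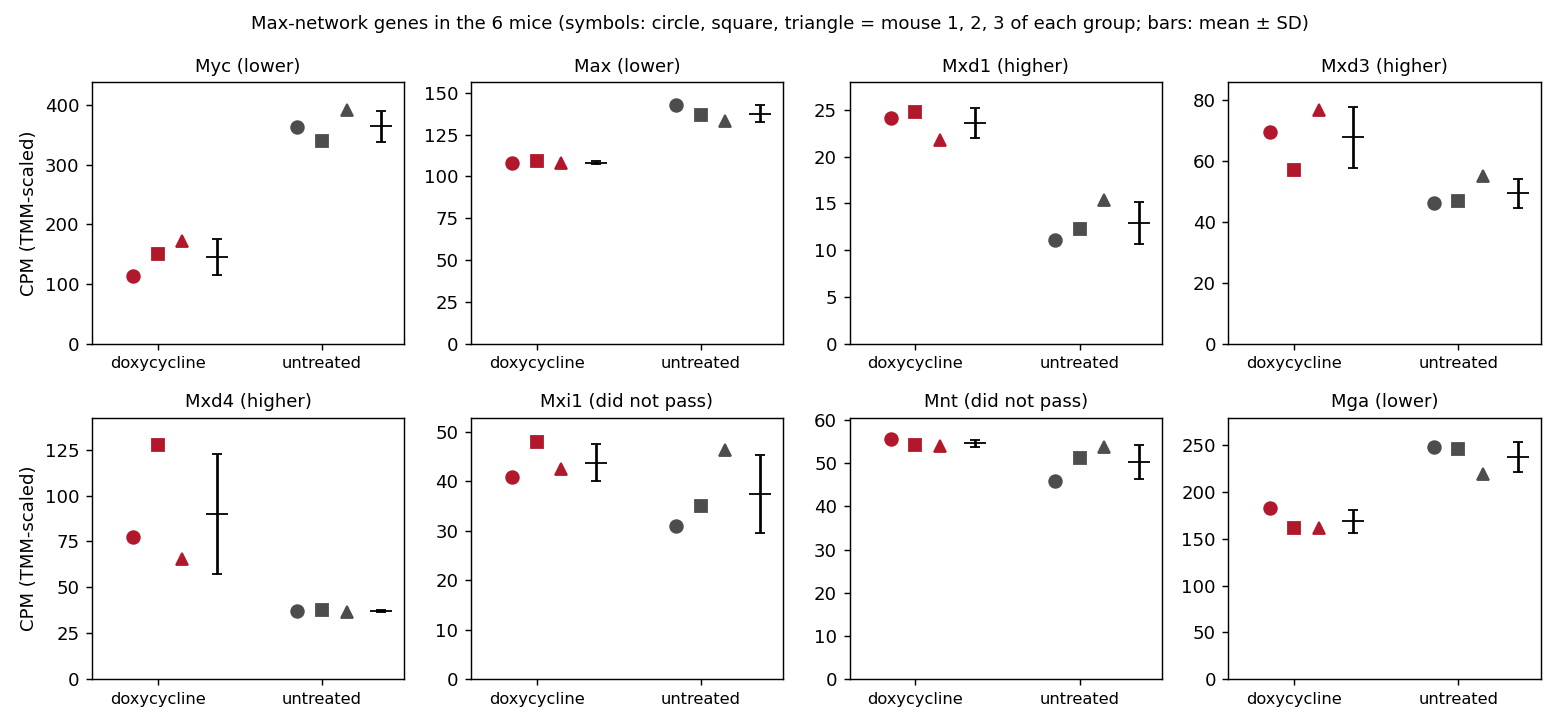
CPM (TMM-scaled, linear axes from 0) of the 8 tested members in each mouse, doxycycline left and untreated right, with the mean ± SD of 3 mice as bars. Myc, Max and Mga sit lower in all 3 doxycycline mice, Mxd1, Mxd3 and Mxd4 sit higher, and the Mxd4 value of doxycycline mouse 2 (127.4 CPM) lies apart.

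**Figure D2:**
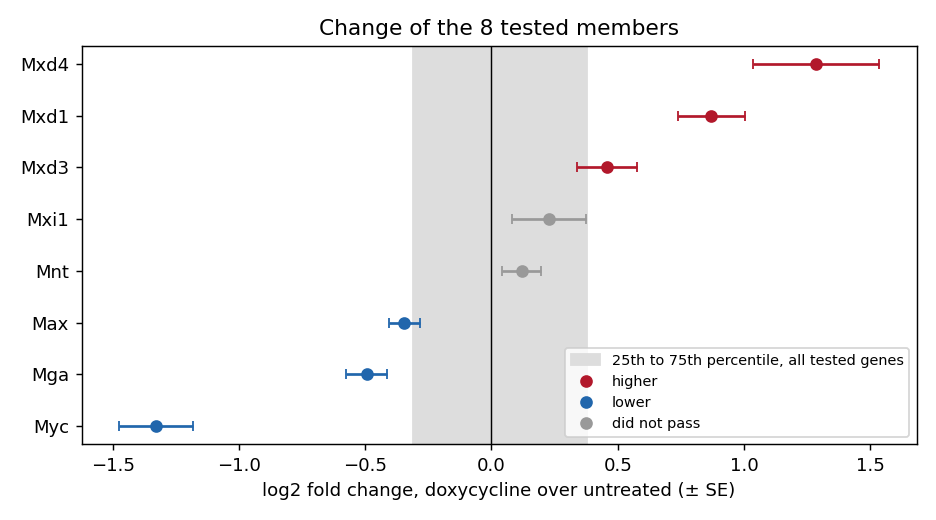
Log2 fold change of doxycycline over untreated ± SE for the 8 tested members, with the range between the 25th and 75th percentiles of all tested genes (-0.31 to 0.38) shaded. Myc (-1.33) and Mxd4 (1.28) lie at the ends, and Mnt and Mxi1 lie within the shaded range.

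Levels of different genes were compared per kilobase of the gene length deposited with the counts (RPKM, from the TMM-scaled CPM). In untreated mice, Myc was the highest member at 152 ± 10.8 RPKM, followed by Max at 68.6 ± 2.52, Mxd3 at 38.0 ± 3.73, Mxd4 at 31.4 ± 0.295, Mga at 17.1 ± 1.17, Mnt at 10.97 ± 0.866, Mxi1 at 6.67 ± 1.41 and Mxd1 at 2.76 ± 0.475 RPKM (SD, n = 3). No 2 neighbours in that order overlapped between mice down to Mxd1. After doxycycline the upper order was no longer distinct. Mxd4 had the highest mean at 76.5 ± 27.8 RPKM, ahead of Myc at 60.6 ± 12.3, Max at 54.0 ± 0.327 and Mxd3 at 52.1 ± 7.76 RPKM, and each overlapped with its next neighbour. Mga (12.1 ± 0.904 RPKM) and Mnt (11.9 ± 0.174 RPKM) also overlapped after doxycycline, while Mxi1 (7.80 ± 0.670) and Mxd1 (5.06 ± 0.339) stayed below them. The deposited length of Mxd4 was 1179 bases, whereas its merged GENCODE M21 exons cover 8483 bases, so its level per length rests on part of the annotated transcript.

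The ratio of Myc to its antagonists was lower after doxycycline, both per length and on CPM. The 6 antagonists together were at 157, 189 and 150.4 RPKM in the doxycycline mice, against 103, 105 and 112 RPKM in the untreated mice. On CPM the antagonists' sums overlapped between the groups, so their separation rests on dividing by the deposited lengths. Myc divided by the RPKM sum was 0.301, 0.333 and 0.476 in the doxycycline mice, against 1.47, 1.34 and 1.45 in the untreated mice. Per length, the doxycycline mice were all below 1 and the untreated mice all above 1, which did not hold on CPM. The mean log2 ratio was -1.46 ± 0.35 after doxycycline and 0.51 ± 0.07 in untreated mice (SD, n = 3 each), a difference of -1.97, or 3.92-fold. These ratios follow from the members' own values, and no p-value was computed for them. On CPM, Myc over the same sum was 0.252, 0.319 and 0.407 in the doxycycline mice, against 0.864, 0.794 and 0.920 in the untreated mice. All 6 mice then lay below 1, the groups still did not overlap, and the log2 difference was -1.42. Most of that difference is the change of Myc itself, which was -1.33 log2 units. The side of 1 on which the untreated mice fall thus rests on dividing by the deposited lengths. In untreated mice Mga, with a deposited length of 13931 bases, had the highest mean CPM of the antagonists (237.8) but 17.1 RPKM. A longer length for Mxd4 would lower the antagonists' sum at the same count, but it could also take in reads of the added bases. The effect of a longer length on the ratio was not tested.

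The ratio differed in size between the single antagonists. Without Mga, which fell itself, the log2 difference of Myc over the remaining antagonists was -2.11 per length. Myc over Mxd4 was 0.720, 0.582 and 1.29 in the doxycycline mice, against 4.82, 4.47 and 5.25 in the untreated mice, a 5.94-fold difference. Myc over Mga was 3.59, 5.43 and 6.17 in the doxycycline mice, against 8.48, 8.03 and 10.4 in the untreated mice, a 1.804-fold difference. Mxd4 made up 45.3 ± 10.5% of the antagonists' summed level after doxycycline and 29.4 ± 1.51% in untreated mice. Mga made up 7.41 ± 1.16% after doxycycline and 16.0 ± 1.79% in untreated mice, and both shares were separated between the groups. The share of Mxd3 was 32.2 ± 8.25% after doxycycline and 35.5 ± 1.86% in untreated mice, and its groups overlapped. These shares rest on the deposited lengths, which for Mxd4 was 1179 bases against 8483 merged exon bases. On mean CPM, Mga was above Mxd4 after doxycycline (168.8 against 90.14) and in untreated mice (237.8 against 37.03).

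Set against Max per length, the ratios of Myc and of its antagonists differed between the groups in opposite directions. Myc over Max was 0.879, 1.16 and 1.33 in the doxycycline mice, against 2.12, 2.08 and 2.47 in the untreated mice. The antagonists over Max were 2.92, 3.48 and 2.79 in the doxycycline mice, against 1.44, 1.54 and 1.70 in the untreated mice. The size of that difference rests on the deposited lengths. On CPM the antagonists over Max were also higher in every doxycycline mouse, but by a smaller factor, and Max itself fell by 0.35 log2 units. Max divided by the sum of Myc and the 6 antagonists was 0.263, 0.216 and 0.243 in the doxycycline mice, against 0.281, 0.276 and 0.240 in the untreated mice, and here the groups overlapped. The summed level of Myc and the 6 antagonists also overlapped, at 226 ± 24.3 RPKM after doxycycline and 259.0 ± 14.95 RPKM in untreated mice. These are transcript levels, and fewer transcripts per cell cannot be told apart from fewer cells that express a gene.

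**Figure D3:**
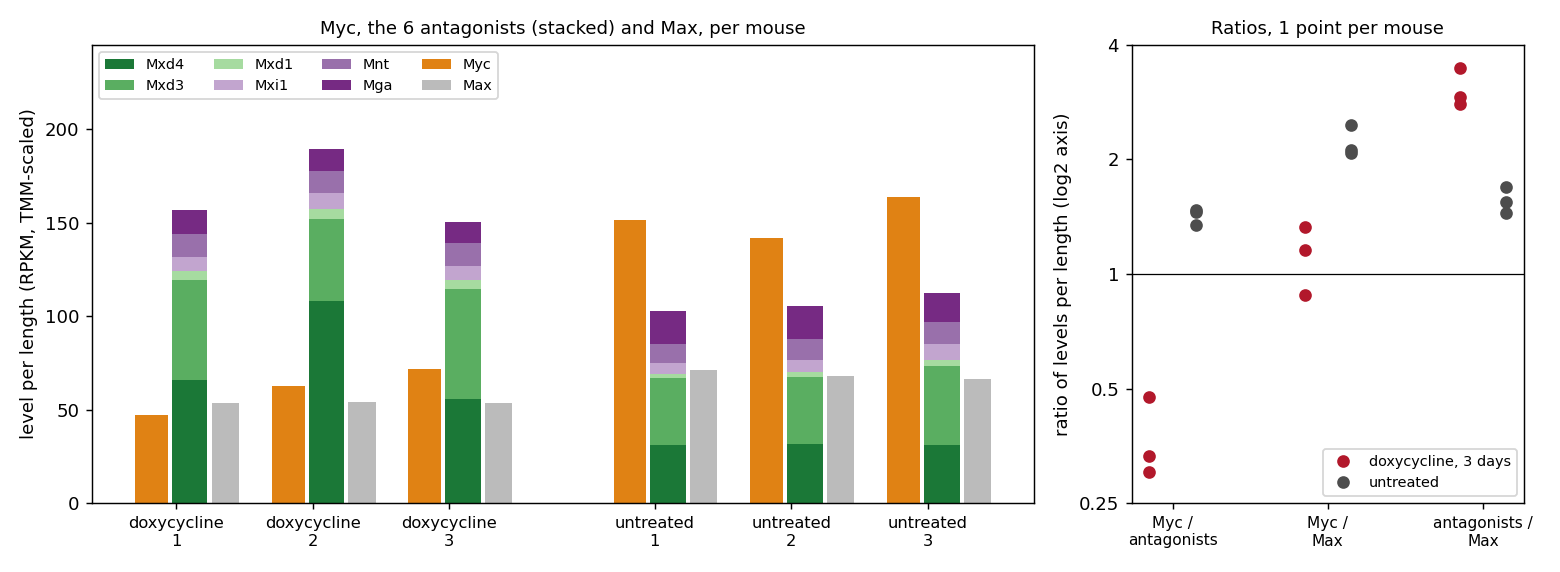
Left, level per length (RPKM) in each mouse of Myc, of the 6 antagonists stacked, and of Max. Right, ratios of these levels on a log2 axis, with 1 point per mouse and a line at 1. Myc over the antagonists lies between 0.301 and 0.476 after doxycycline and between 1.34 and 1.47 in untreated mice.

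Genes reported as direct, Myc-induced targets were mostly lower after doxycycline. Of 30 listed and tested genes, 27 fell, 0 rose and 3 did not pass, with a median log2 fold change of -0.68, where the median of all tested genes was -0.0037 and 25.2% of them fell. The list was chosen with earlier results of these data known, and it was not tested as a set. The members with the smallest p-values were Bop1, Apex1, Dkc1 and Nolc1. Bop1, a factor of large ribosomal subunit assembly, had 173.7, 169.5 and 197.1 CPM in the doxycycline mice, against 307, 299 and 289 CPM in the untreated mice, and fell by 0.73 log2 units (edgeR adjusted p = 0.00021). Apex1, a base-excision repair endonuclease, was lower by 1.77-fold (edgeR adjusted p = 0.00021). Dkc1, the pseudouridine synthase of small nucleolar RNPs, was lower by 1.798-fold (edgeR adjusted p = 0.00022), and Nolc1, a nucleolar chaperone, by 1.68-fold (edgeR adjusted p = 0.00044). The genes that did not pass were Ccnd2 (0.23), Tert (-0.34) and Ptma (-0.19 log2 units).

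Genes reported as Myc-repressed split in both directions. Of 12 listed genes, 11 were tested, and 6 rose, 4 fell and 1 did not pass. The share that passed was 90.9%, against 50.0% of all tested genes (24.8% higher, 25.2% lower). Their median log2 fold change was 0.56 and their mean was -0.36, so median and mean had opposite signs. Gadd45a, a stress-induced growth-arrest gene, had 17.5, 19.1 and 16.4 CPM in the doxycycline mice, against 4.49, 4.43 and 5.26 CPM in the untreated mice, and rose by 1.90 log2 units (SE 0.13, edgeR adjusted p = 3.9e-05). Ccng2, encoding a cyclin of resting cells, rose 2.02-fold (edgeR adjusted p = 0.00079). Cdkn1a, the gene of the cell-cycle inhibitor p21 that Myc represses through Miz-1, had 2.352, 1.598 and 3.036 CPM in the doxycycline mice, against 35.7, 34.8 and 21.7 CPM in the untreated mice. Cdkn1a fell by 3.72 log2 units (SE 0.29, edgeR adjusted p = 0.00018), alongside Pdgfrb, a growth factor receptor gene, which fell by 2.92 (edgeR adjusted p = 0.00050).

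Partners of the antagonists were counted as lists of their own, from the calls of single genes and with no test of a list. Of 18 subunits of the Sin3 and histone deacetylase corepressor, which the Mxd proteins and Mnt recruit, 2 rose, 4 fell and 12 did not pass, so 33.3% passed, where 50.0% of all tested genes did. The list's median log2 fold change was 0.04 and its mean was -0.04. Only 1 subunit rose when doxycycline mouse 1, untreated mouse 2 or untreated mouse 3 was left out, and 2 fell when doxycycline mouse 2, untreated mouse 1 or untreated mouse 2 was left out. Sap30, a Sin3-complex subunit, had 13.35, 10.95 and 14.26 CPM in the doxycycline mice, against 27.8, 23.6 and 25.2 CPM in the untreated mice, and fell 1.99-fold (edgeR adjusted p = 0.00044). Sap18 fell by 0.38 log2 units, while Arid4a and Arid4b, which encode related Sin3-associated proteins, rose by 0.40 and 0.29 (edgeR adjusted p = 0.0080, 0.0088 and 0.027). Sin3a itself was at 223 ± 17.8 CPM after doxycycline and 225 ± 4.42 CPM in untreated mice (edgeR adjusted p = 0.91).

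Of 12 subunits of the PRC1.6 complex that Mga and Max join, 5 fell, 2 rose and 5 did not pass, so 58.3% passed, near the 50.0% of all tested genes. Pcgf6, the subunit that marks this Polycomb complex, had 18.7, 19.1 and 18.2 CPM in the doxycycline mice, against 33.8, 32.7 and 31.5 CPM in the untreated mice, and fell by 0.81 log2 units (SE 0.08, edgeR adjusted p = 0.00016). E2f6, the second DNA-binding component beside Mga, and Wdr5, an adaptor of several chromatin complexes, were lower by 1.48-fold (edgeR adjusted p = 0.0025) and 1.37-fold (0.00084). Yaf2, a subunit shared with other Polycomb complexes, rose by 0.53 (edgeR adjusted p = 0.0018). The list's median log2 fold change was -0.07.

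Of 21 coactivators and DNA-binding cofactors of Myc, 8 fell, 6 rose and 7 did not pass, with a median of -0.03. The share that passed was 66.7%, against 50.0% of all tested genes, which also went both ways (24.8% higher, 25.2% lower). Kat2a, the acetyltransferase GCN5, had 101.2, 116 and 127 CPM in the doxycycline mice, against 179, 184 and 188 CPM in the untreated mice, and its log2 fold change was -0.68 (SE 0.09, edgeR adjusted p = 0.00050). Of the paired ATPases, Ruvbl1 was lower by 1.64-fold (edgeR adjusted p = 0.00094) and Ruvbl2 by 1.58-fold (0.00091), and Wdr5 is given above. Of 24 genes that act on Myc protein turnover or phosphorylation, 9 fell, 3 rose and 12 did not pass, with a median of -0.17. Both this list and all tested genes had 50.0% that passed. Without untreated mouse 1 those counts were 5 and 1, and without untreated mouse 2 they were 7 and 1. Skp2, a ubiquitin ligase subunit that targets Myc, had 98.9, 75.7 and 92.8 CPM in the doxycycline mice, against 152, 157 and 148 CPM in the untreated mice, and fell by 0.77 log2 units (edgeR adjusted p = 0.00050). Set, an inhibitor of the phosphatase PP2A, and Usp28, a deubiquitinase of Myc, fell by 0.51 and 0.52, and Trpc4ap, a ubiquitin ligase adaptor for Myc, rose by 0.42 (edgeR adjusted p = 0.0034, 0.0034 and 0.0022). Of the neighbouring Mlx arm, in which Mlx takes the place of Max and can also pair with Mxd1, Mxd4 and Mnt, Mlx rose by 0.44 log2 units (SE 0.09, edgeR adjusted p = 0.0038), Mlxip had a log2 difference of 0.15 (edgeR adjusted p = 0.35) and Mlxipl did not pass the low-count filter.

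**Figure D4:**
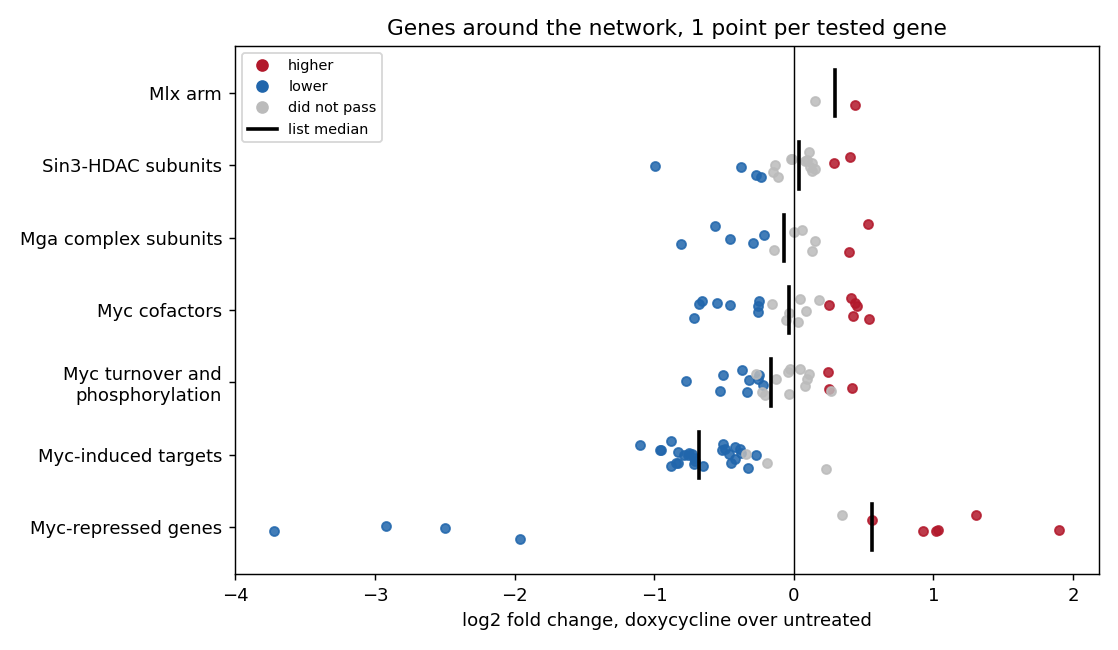
Log2 fold change of doxycycline over untreated for each tested gene of 7 lists around the network, coloured by the call, with the list median as a black line. The Myc-induced targets lie almost entirely below 0 (27 of 30 lower), and the Myc-repressed genes lie on both sides (6 higher, 4 lower).

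Profiles over the 6 mice were compared by Euclidean distance of centred log2 CPM among 11861 tested genes without a placeholder symbol. The genes nearest to Myc were Tnfrsf8 (distance 0.269), Tmem132a (0.293), Pkn3 (0.323), Immp2l (0.326) and Nipal4 (0.326). Of these, Immp2l (mean 0.596 CPM after doxycycline and 1.70 CPM in untreated mice) and Nipal4 (0.332 and 0.970 CPM) were at low levels. Tnfrsf8, encoding the receptor CD30, had 30.0, 41.4 and 40.5 CPM in the doxycycline mice, against 92.5, 102.8 and 108.3 CPM in the untreated mice. Nearest to Mxd4 were Trp53inp1 (distance 0.172), Rasl11b (0.207), Ly96 (0.314), Kcna2 (0.321) and Dclre1c (0.326). Like Mxd4, all of them had their highest value in doxycycline mouse 2, which choosing by profile favours. Trp53inp1, a p53-induced gene, had 1017, 1625 and 827 CPM in the doxycycline mice, against 465, 521 and 523 CPM in the untreated mice. These distances describe 6 mice and were not tested.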

How the data were processed

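Counts of reads per gene were deposited by the authors for each of 12 libraries, and the total table equalled the per-library tables in 12 of 12. Per the submitters' processing notes, CASAVA 1.8.1, featureCounts and the build mm10 were used. No aligner, annotation or strand setting is stated in the sources used here. The cells were FACS-sorted from spleens, per the labels' protocols. Symbols were matched by Entrez ID for 25293 of 27179 genes. The 2 runs of a mouse were added up, filtered with filterByExpr (13134 genes kept) and tested with edgeR 4.0.16 in R 4.3.3 (TMM, robust quasi-likelihood F test, Benjamini-Hochberg adjustment, call at 0.05), with 3 mice per group. The procedure was tested on simulated counts with far fewer changed genes than were called here. That check does not cover changes this broad. An exact permutation test of 3 against 3 cannot go below p = 0.1, so none is given. Promoters are RefSeq's for GRCm38.p6, and exons are from GENCODE M21. Genes are named as members, as Ikzf1 and Pvt1, as the 4 smallest p-values of each list or as the 5 nearest to Myc and to Mxd4, with a few further genes chosen after their values were seen. The members and lists were chosen with earlier results of these data known. Alternatives are other scalings, filters, tools (DESeq2 1.42.0, limma 3.58.1), single runs, a replicate block and left-out mice. Proteins were not used here.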

Additional observations from a re-analysis of the deposited data

How the results depend on the processing

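Over 18 alternative settings no member changed direction. Myc ranged from -1.46 to -1.18 log2 units, Max from -0.37 to -0.32, Mga from -0.56 to -0.45, Mxd1 from 0.77 to 1.01, Mxd3 from 0.36 to 0.66 and Mxd4 from 0.95 to 1.48. Leaving out 1 mouse at a time, 2 to 4 members rose and 3 fell. Over the same settings, 2417 to 3136 of all genes rose and 2452 to 3162 fell, the Sin3 list had 1 to 3 genes that rose and 2 to 4 that fell, and the turnover list had 1 to 3 and 5 to 8. With untreated mouse 3 and doxycycline mouse 2 both left out, 1 Sin3 gene rose. On CPM, the log2 difference of Myc over the 6 antagonists was -1.42, and the untreated mice no longer lay above 1. Same-numbered mice did not pair: their deviations correlated at 0.156, -0.0116 and -0.103, and only doxycycline mouse 1 correlated best with its own number. With the replicate number as a block, 3103 genes rose and 3156 fell, and 3 members rose and 3 fell. Mycn and Mycl had too few counts for the filter and were not tested. 3 mice per group carry 1 leukemia.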

Other observations

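Doxycycline mouse 2 had the highest Mxd4 (127.4 CPM, where the other treated mice had 77.47 and 65.55 CPM) and the lowest median of the 30 Myc-induced targets. That median, relative to the mean of the untreated mice, was -0.60, -0.80 and -0.55 log2 units in doxycycline mice 1, 2 and 3, against 0.08, -0.03 and -0.05 in untreated mice 1, 2 and 3. Its Myc, at 151 CPM, was the middle value of the doxycycline mice. Mycbp, which encodes a Myc-binding protein outside the network, had 17.46, 14.96 and 16.31 CPM in the doxycycline mice, against 25.08, 23.34 and 22.82 CPM in the untreated mice, and fell by 0.55 log2 units (SE 0.10, edgeR adjusted p = 0.0021).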
